A study of Mus musculus with 10 samples.

Results

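Collagens are the main structural proteins of the extracellular matrix. Alpha chains wind around each other into a helix, and the many chain genes give fibrils, sheet-like networks, fibril-associated chains and chains anchored in the cell membrane. In the developing forebrain they lie mainly in the pial basement membrane, the meninges and vessel walls, and a smaller number are made by neurons and progenitors. The genes described here are all symbols of the RNA-seq table of the form Col, number, a, number, whose normalized counts averaged at least 10 over the 4 libraries. Of 43 such symbols, 38 met that minimum, out of 14324 tested genes. Col6a5, Col6a4, Col6a6, Col5a3 and Col13a1 fell short. Col13a1, with a mean of 9.65, was just outside and Col4a3, with 11.4, just inside.

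The tissue was cortical midline from C57/Bl6 embryos on embryonic day 14.5. RNA came from 2 control libraries (Rcor2f/f, with floxed alleles, labelled CTL) and 2 conditional knockout libraries (Rcor2f/f/EMX1-iCRE, called cKO 1 and cKO 2), in which Cre is driven from Emx1, a gene of dorsal telencephalic progenitors. Meningeal, vascular and blood cells arise mainly outside that lineage. ChIP-seq came from wild-type embryos with 2 libraries each for anti-Rcor2, rabbit IgG and input. Rcor2 is a scaffold of a repressor complex that carries histone demethylase and deacetylase activity. The labels do not name litters or pooling, so p-values measure the spread between these libraries, which may be technical. Rcor2 itself had normalized counts of 7901 (control 1), 7257 (control 2), 6363 (cKO 1) and 6840.2 (cKO 2). Both cKO values were below both controls, but the difference did not pass (log2 change -0.20, SE 0.057, limma adjusted p 0.0541). It passed with DESeq2 (adjusted p 0.0488) and in the authors' deposited table (adjusted p 0.0444). The labels do not state which exons were deleted.

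The 4 RNA libraries held 27674987 to 30270598 reads. All 10 dorsal telencephalon markers were detected, among them Emx1, with normalized counts of 3166 (control 1), 3122 (control 2), 3603 (cKO 1) and 3612 (cKO 2). Their summed counts ran from 72217 to 74410 over the 4 libraries. In bulk tissue fewer cells of a type and less RNA per cell cannot be told apart. cKO 1 stood apart from the other 3 libraries for fibroblast genes (values beside the collagens they moved with).

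Genes of the sex chromosomes split the libraries by replicate number and not by group. Xist, the RNA of the inactive X chromosome, had normalized counts of 23.4 (control 1), 20334 (control 2), 49.4 (cKO 1) and 21449 (cKO 2). The Y-linked Ddx3y had 2936 (control 1), 4.32 (control 2), 3211 (cKO 1) and 2.94 (cKO 2), and Eif2s3y, Kdm5d and Uty were split in the same way. Each group thus held 1 library with high Y-linked genes and 1 with high Xist, so the comparison of groups was balanced for this split. A difference between cKO 1 and cKO 2 cannot be told apart from it by those libraries alone, so the same split between the controls is given beside such a result. Leaving out 1 library ends the balance.

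Values are normalized counts as deposited. No transcript lengths were used, so levels are compared between libraries and not between genes.

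The promoters of 5 members are shown because their genes carry the contrast of the data. Col4a5 and Col4a6 lie head to head on chromosome X and were both higher in the cKO. Col4a1, whose window overlaps that of the head-to-head Col4a2, did not pass. Col1a2 and Col3a1 were high in cKO 1. Each window runs from 250 bases before to 50 bases after the gene start, 5′ to 3′ on the gene's strand, from RefSeq (GRCm38.p6). Capitals mark CCAAT (the box bound by NF-Y), TATAAA (the TATA box), GGGCGG (the GC box bound by Sp1) and TTCAGCACC (a part of the element that Rest binds) on either strand.
Col4a6 (chrX:141474027-141474326, minus strand): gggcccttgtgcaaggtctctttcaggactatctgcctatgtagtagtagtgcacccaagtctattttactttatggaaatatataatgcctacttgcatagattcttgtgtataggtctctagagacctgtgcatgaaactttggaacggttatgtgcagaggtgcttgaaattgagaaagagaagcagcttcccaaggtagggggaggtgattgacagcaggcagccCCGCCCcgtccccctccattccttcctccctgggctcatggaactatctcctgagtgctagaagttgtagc
Col4a5 (chrX:141475169-141475468, plus strand): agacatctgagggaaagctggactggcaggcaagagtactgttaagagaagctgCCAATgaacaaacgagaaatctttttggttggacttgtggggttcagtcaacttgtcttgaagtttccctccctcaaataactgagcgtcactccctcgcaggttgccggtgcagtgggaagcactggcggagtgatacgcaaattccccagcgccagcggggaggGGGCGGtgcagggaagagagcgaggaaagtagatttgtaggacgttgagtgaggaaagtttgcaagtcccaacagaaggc
Col4a1 (chr8:11312777-11313076, minus strand): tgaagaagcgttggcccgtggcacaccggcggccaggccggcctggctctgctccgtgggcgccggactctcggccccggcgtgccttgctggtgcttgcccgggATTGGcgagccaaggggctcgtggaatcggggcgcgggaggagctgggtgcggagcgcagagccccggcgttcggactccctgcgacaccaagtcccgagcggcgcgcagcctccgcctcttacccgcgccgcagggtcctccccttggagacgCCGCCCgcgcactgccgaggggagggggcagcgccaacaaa
Col1a2 (chr6:4505368-4505667, plus strand): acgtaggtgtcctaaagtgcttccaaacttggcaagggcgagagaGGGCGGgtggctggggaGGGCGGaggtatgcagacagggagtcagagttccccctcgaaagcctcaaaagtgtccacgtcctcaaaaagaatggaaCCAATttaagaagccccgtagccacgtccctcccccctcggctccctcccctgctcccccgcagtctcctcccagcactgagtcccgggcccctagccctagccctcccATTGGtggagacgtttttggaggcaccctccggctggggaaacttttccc
Col3a1 (chr1:45311288-45311587, plus strand): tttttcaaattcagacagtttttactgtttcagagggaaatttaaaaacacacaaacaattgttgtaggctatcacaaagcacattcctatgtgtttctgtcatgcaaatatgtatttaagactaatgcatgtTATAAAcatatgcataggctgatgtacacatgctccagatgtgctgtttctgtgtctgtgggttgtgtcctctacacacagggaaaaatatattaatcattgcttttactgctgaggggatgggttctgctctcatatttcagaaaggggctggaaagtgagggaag
The gene starts of Col4a5 and Col4a6 are 1343 bases apart, and those of Col4a1 and Col4a2 are 21 bases apart. The Col4a1 window holds 37 CpG dinucleotides, the Col4a6 window 3 and the Col3a1 window 0, against a median of 7 over all windows. RefSeq windows were matched for 29 of the 38 members, 32 windows in all. GGGCGG was in 19 of these (59.4%) against 35.7% of all 32851 windows, CCAAT in 11 (34.4% against 37.4%), TATAAA in 3 (9.38% against 13.6%) and TTCAGCACC in 0, against 0.371% of all windows. Overlapping matches were marked together, and a match of letters is a description and not a binding site.

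The first comparison was between cKO and control midline. Of the 38 collagen genes, 7 were higher in the cKO, 1 was lower and 30 did not pass limma at an adjusted p under 0.05. The share higher was 18.4%, against 6.16% of all tested genes, and 8.29% of all tested genes were lower. The median log2 change of the members was 0.38, against -0.012 over all tested genes. The genes that rose were Col1a1, Col4a5, Col4a6, Col9a2, Col18a1, Col26a1 and Col27a1, and Col19a1 fell. These 8 genes come from 5 structural classes. Without cKO 1, 5 members were higher (background 3.83%) and 1 lower (background 5.83%), with a median of 0.16. Without cKO 2, 17 were higher (background 10.7%). Without control 1, Col26a1 alone passed (background 0.44% higher and 0.761% lower). Without control 2, limma called 0 members (background 0.405% higher and 0.572% lower); 9 members were then higher and 1 was lower at an unadjusted p under 0.05. The share of all tested genes at that unadjusted level without control 2 is not given here. The counts of 9 and 1 therefore cannot be set against a background. With all 4 libraries, 14 members were higher and 1 lower at that level in limma. Over all 14324 tested genes, 1865 were then higher and 2449 lower. With the replicate number, and so the split of the sex-linked genes, as a block, limma called 11 members higher (background 6.25%) and 1 lower (background 8.24%). The block added Col1a2, Col2a1, Col6a1, Col11a1 and Col16a1 and lost Col27a1 (limma adjusted p 0.0621). Within pairs of 1 number, the median log2 difference of the members was 0.45 for cKO 1 and 0.20 for cKO 2.

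**Figure D1:**
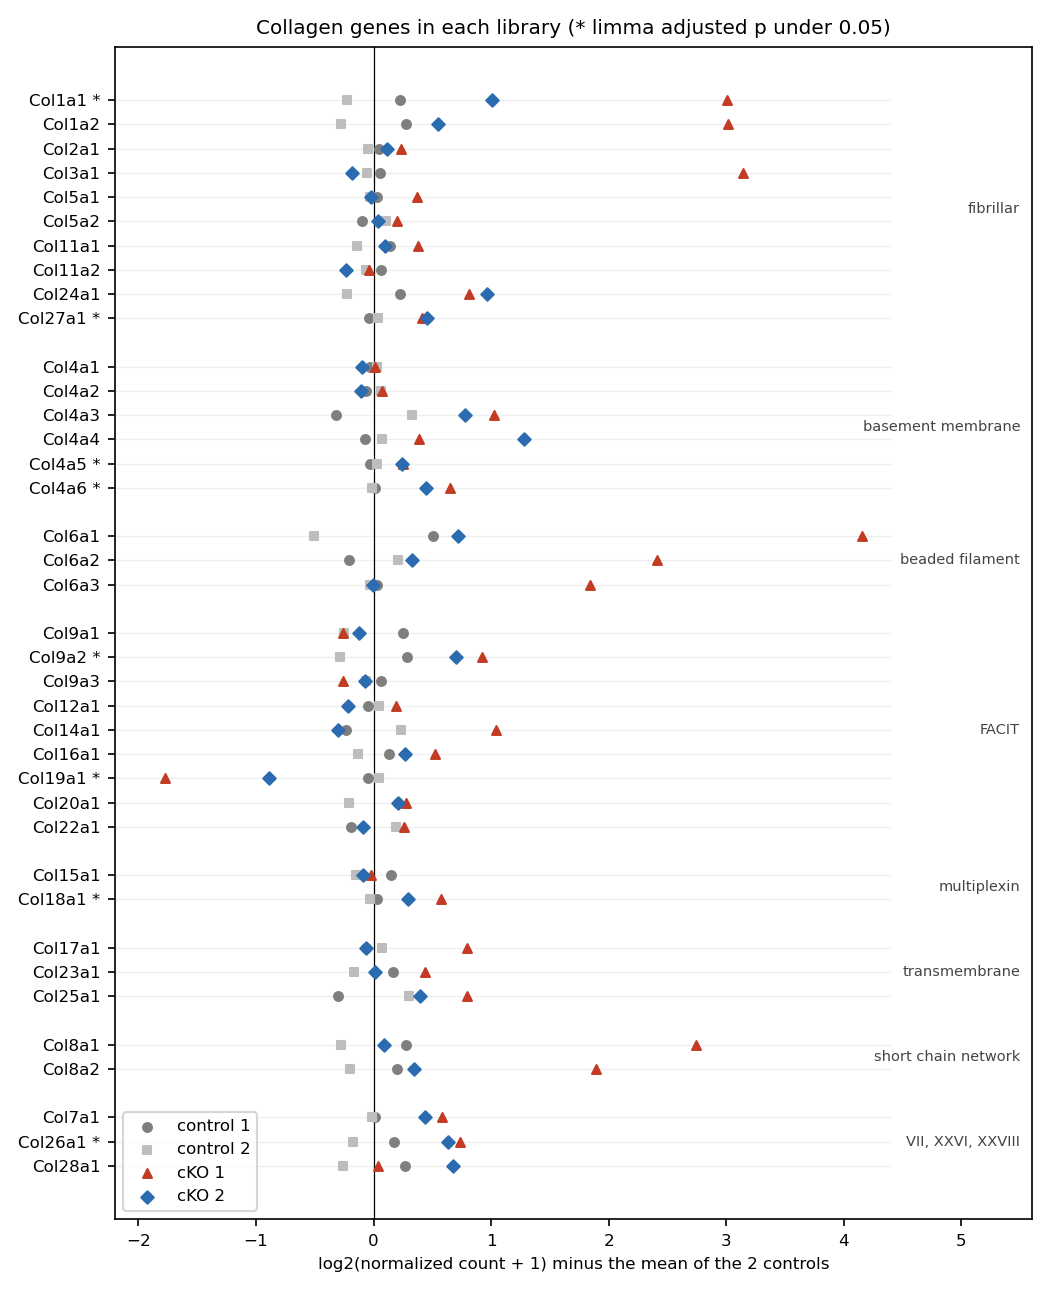
Each row is a collagen gene, ordered by structural class; the x axis is log2(normalized count + 1) in each of the 4 libraries minus the mean of the 2 controls, and an asterisk marks limma adjusted p under 0.05. Red triangles (cKO 1) lie far to the right for Col1a1, Col1a2, Col3a1, the Col6 and the Col8 genes, while Col4a5, Col26a1 and Col27a1 have both cKO libraries close together.

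Among basement membrane collagens, the network-forming type IV chains, 2 of 6 rose and 4 did not pass. Col4a6 (chromosome X, 141165403 to 141474095, mm10) had normalized counts of 449.6 (control 1), 443 (control 2), 701 (cKO 1) and 609.7 (cKO 2). It went from 446 ± 4.48 to 656 ± 64.8 (SD, n = 2 each) (log2 change 0.55, SE 0.091, limma adjusted p 0.00897). Both cKO libraries were above both controls, and the controls differed by little. Its neighbour Col4a5 (chromosome X, 141475370 to 141689236), whose chain joins the Col4a6 chain in one network of basement membranes, had 1423 (control 1), 1486 (control 2), 1731 (cKO 1) and 1717 (cKO 2). It rose from 1455 ± 44.99 to 1724 ± 9.91 (SD, n = 2 each) (log2 change 0.25, SE 0.054, limma adjusted p 0.0224). The cKO libraries were nearly equal for Col4a5 and above both controls. The ratio of Col4a5 to Col4a6 counts was 3.16 in control 1, 3.35 in control 2, 2.47 in cKO 1 and 2.82 in cKO 2; whether the change differed between the neighbours was not tested. Both genes are X-linked, so each cKO library was also set against the control of its own number. Col4a6 was higher by 0.64 on the log2 scale in the pair with high Y-linked genes and by 0.46 in the pair with high Xist, and Col4a5 by 0.28 and 0.21.

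Col4a1 and Col4a2 encode the chains found in nearly every basement membrane, vessel walls included. Col4a1 had normalized counts of 4499 (control 1), 4698 (control 2), 4644 (cKO 1) and 4295 (cKO 2) (log2 change -0.04, 95% interval -0.16 to 0.08, limma adjusted p 0.644). Col4a2 had 2345 (control 1), 2574 (control 2), 2586 (cKO 1) and 2282 (cKO 2) (log2 change -0.02, 95% interval -0.18 to 0.15, limma adjusted p 0.908). The groups overlapped for both genes, and their ratio stayed between 1.80 and 1.92 in the 4 libraries. The kidney-type chains Col4a3 and Col4a4 were at low counts. Col4a3 had 5.85 (control 1), 9.73 (control 2), 16.5 (cKO 1) and 13.7 (cKO 2) and Col4a4 had 11.7 (control 1), 12.97 (control 2), 16.5 (cKO 1) and 31.3 (cKO 2). Neither passed (limma adjusted p 0.189 and 0.192), although both cKO values of each lay above both controls.

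Col18a1 (chromosome 10, 77052178 to 77166530) encodes a basement membrane collagen that carries heparan sulfate and releases endostatin. Its normalized counts were 1909 (control 1), 1828 (control 2), 2775 (cKO 1) and 2284 (cKO 2). It rose from 1869 ± 57.6 to 2529.9 ± 347 (SD, n = 2 each) (log2 change 0.43, SE 0.086, limma adjusted p 0.0155), and still passed without cKO 1 (log2 0.29, limma adjusted p 0.0111). cKO 1 was the higher of the cKO libraries, and the groups did not overlap. The related Col15a1 had 105 (control 1), 85.4 (control 2), 93.6 (cKO 1) and 89.1 (cKO 2) and did not pass (limma adjusted p 0.87).

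Col26a1 (chromosome 5, 136741759 to 136883376) encodes a small collagen-like secreted protein. Its normalized counts were 421 (control 1), 329.7 (control 2), 621 (cKO 1) and 577 (cKO 2). It went from 375 ± 64.7 to 599 ± 30.9 (SD, n = 2 each) (log2 change 0.68, SE 0.12, limma adjusted p 0.0109). Both cKO libraries were above both controls, and the call held without cKO 1 (limma adjusted p 0.0118). Col7a1, the anchoring fibril collagen of epithelia, had 25.4 (control 1), 24.9 (control 2), 38.05 (cKO 1) and 34.3 (cKO 2) and did not pass (limma adjusted p 0.227). Col28a1, a collagen with von Willebrand factor domains, had 40.96 (control 1), 28.1 (control 2), 34.96 (cKO 1) and 54.8 (cKO 2) and was the 1 member raised above both controls in cKO 2 only (limma adjusted p 0.478).

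FACIT collagens are fibril-associated chains with interrupted helices. Col9a2, a chain of the type IX trimer of cartilage and vitreous, was the 1 of 9 that rose. It had normalized counts of 123 (control 1), 82.2 (control 2), 191 (cKO 1) and 164 (cKO 2) (log2 change 0.81, SE 0.20, limma adjusted p 0.0341). The groups did not overlap, but control 1 was well above control 2. Its trimer partners did not pass: Col9a1 had 75.1 (control 1), 52.97 (control 2), 52.4 (cKO 1) and 57.7 (cKO 2) (limma adjusted p 0.619), and Col9a3 had 313 (control 1), 285 (control 2), 249 (cKO 1) and 284 (cKO 2) (limma adjusted p 0.369). The ratio of Col9a2 to Col9a3 was 0.393 in control 1, 0.288 in control 2, 0.769 in cKO 1 and 0.579 in cKO 2; the difference in response between the chains was not tested. Without cKO 1, Col9a2 no longer passed (log2 0.70, limma adjusted p 0.0816).

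Col19a1 (chromosome 1, 24257683 to 24587922), a FACIT collagen known from brain interneurons and their synapses, was the 1 member that fell. It had normalized counts of 104 (control 1), 111 (control 2), 30.8 (cKO 1) and 57.7 (cKO 2). It went from 108 ± 4.95 to 44.3 ± 19.02 (SD, n = 2 each) (log2 change -1.33, SE 0.28, limma adjusted p 0.0197). Both cKO libraries were below both controls and cKO 1 was the lower. Without cKO 1 the log2 change was -0.89 (limma adjusted p 0.0207). Col9a1, which lies next to Col19a1 on chromosome 1, did not pass. The other 5 FACIT genes did not pass either. Col16a1 had 374 (control 1), 310.3 (control 2), 489 (cKO 1) and 411 (cKO 2) (limma adjusted p 0.0734), with both cKO values above both controls. Col12a1, an abundant chain of dense connective tissue, had 1464 (control 1), 1568 (control 2), 1733 (cKO 1) and 1302 (cKO 2), with the groups overlapping. Col14a1 had 18.5 (control 1), 25.9 (control 2), 46.3 (cKO 1) and 17.6 (cKO 2), Col20a1 20.5 (control 1), 15.1 (control 2), 21.6 (cKO 1) and 20.6 (cKO 2), and Col22a1 116 (control 1), 151 (control 2), 158 (cKO 1) and 124 (cKO 2).

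Fibrillar collagens form the banded fibrils of connective tissue. Of 10 tested, 2 rose and 8 did not pass. Col27a1 (chromosome 4, 63214009 to 63334991), a fibrillar chain of cartilage, had normalized counts of 154 (control 1), 162 (control 2), 211 (cKO 1) and 217 (cKO 2) (log2 change 0.43, SE 0.12, limma adjusted p 0.0491). The 2 cKO values were close and both above the controls, but the adjusted p sat at the threshold. The call was lost with DESeq2 (adjusted p 0.208), with quantile normalization and with no filter on low values (limma adjusted p 0.0583 and 0.0528), and without either cKO library (limma adjusted p 0.0977 without cKO 1 and 0.0827 without cKO 2). Col24a1, the nearest relative of Col27a1, had 19.5 (control 1), 14.1 (control 2), 29.8 (cKO 1) and 33.3 (cKO 2) and did not pass (limma adjusted p 0.0912).

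Col1a1 (chromosome 11, 94936224 to 94953042), a chain of type I collagen, the main fibril of skin, bone and meninges, showed the largest rise of the 7. Its normalized counts were 355 (control 1), 258 (control 2), 2442 (cKO 1) and 611 (cKO 2). It went from 307 ± 68.3 to 1526 ± 1295 (SD, n = 2 each) (log2 change 2.01, SE 0.51, limma adjusted p 0.0354). cKO 1 was 3.999 times cKO 2, so that the spread within the cKO was nearly as large as its mean. Without cKO 1 the log2 change was 1.01 (limma adjusted p 0.00184), the residual spread then coming from the controls alone. The call was lost with quantile normalization (limma adjusted p 0.0657), with DESeq2 (adjusted p 0.0849) and in the authors' deposited table (log2 2.33, adjusted p 0.0821).

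Col1a2, the partner chain of Col1a1, had normalized counts of 314 (control 1), 213 (control 2), 2096 (cKO 1) and 378 (cKO 2) (log2 change 1.78, SE 0.63, limma adjusted p 0.0976). cKO 2 was only 1.20 times the higher control, while cKO 1 was 6.67 times. The ratio of Col1a1 to Col1a2 was 1.13 and 1.21 in the controls, 1.17 in cKO 1 and 1.62 in cKO 2. In cKO 1 both chains were raised in the proportion of the controls, and in cKO 2 the ratio was higher.

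Col3a1, a fibrillar collagen of soft tissue and the ligand of Adgrg1 in the developing cortex, had normalized counts of 334 (control 1), 308 (control 2), 2842 (cKO 1) and 282 (cKO 2). The controls, which had the same split of Xist and Y-linked genes, were close to each other. The value of cKO 2 was below both controls and that of cKO 1 was 8.52 times the higher control. The log2 change of 1.48 (SE 0.83) did not pass (limma adjusted p 0.27), and without cKO 1 it was -0.18. Col5a2, its neighbour on chromosome 1 and a chain of type V collagen, had 2263 (control 1), 2609 (control 2), 2797 (cKO 1) and 2496 (cKO 2). The ratio of Col3a1 to Col5a2 was 0.147 and 0.118 in the controls, 1.02 in cKO 1 and 0.113 in cKO 2, so the adjacent genes did not move together in cKO 1. Col5a1, the partner of Col5a2, had 1038 (control 1), 996 (control 2), 1312 (cKO 1) and 1001 (cKO 2) and did not pass (limma adjusted p 0.348).

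The type II and type XI fibril genes did not pass. Col2a1, which neural progenitors and notochord also express, had 4262 (control 1), 3988 (control 2), 4859.9 (cKO 1) and 4469.8 (cKO 2) (log2 change 0.18, 95% interval 0.05 to 0.31, limma adjusted p 0.0761). Both cKO values were above both controls. Col11a1 had 1416 (control 1), 1161 (control 2), 1663 (cKO 1) and 1370.2 (cKO 2) (limma adjusted p 0.201), and Col11a2 had 139 (control 1), 128 (control 2), 129.6 (cKO 1) and 114 (cKO 2) (limma adjusted p 0.59).

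**Figure D2:**
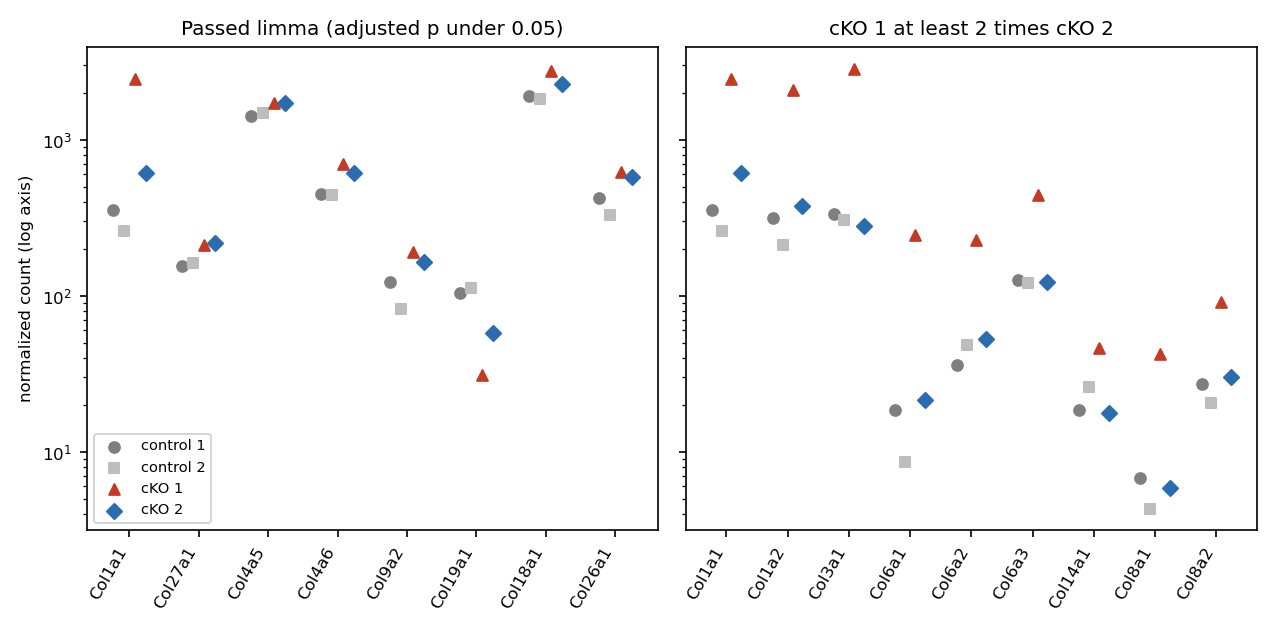
Normalized counts (log axis) in the 4 libraries for the 8 collagen genes that passed limma (left) and for the 9 whose count in cKO 1 was at least 2 times that in cKO 2 (right). On the right, cKO 2 is at most 1.20 times the higher control for every gene but Col1a1, and cKO 1 reaches 2842 for Col3a1.

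The collagens were also separated by library. This split uses the measured values and is a description without a test. In both cKO libraries, 19 members (50%) were above both controls, against 27.7% of all tested genes, and 12 (31.6%) were above both controls in cKO 1 only, against 11.4%. At a margin of at least 25% above the higher control, 9 members were above in both cKO libraries (background 3.55%): Col1a1, Col24a1, Col27a1, Col4a3, Col4a4, Col4a6, Col9a2, Col7a1 and Col26a1. At that margin 13 members were high in cKO 1 only (background 5.86%): Col1a2, Col3a1, Col5a1, Col6a1, Col6a2, Col6a3, Col8a1, Col8a2, Col14a1, Col16a1, Col17a1, Col18a1 and Col25a1. Col28a1 alone was high in cKO 2 and not in cKO 1, with the margin (background 1.39%) and without it (background 8.57%). Col4a3 and Col8a1, counted here, had control means of 7.79 and 5.58, so their high cKO values decided their membership.

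In 9 members cKO 1 was at least 2 times cKO 2, against 1.03% of all tested genes, and in 0 members was cKO 2 at least 2 times cKO 1 (0.482% of all tested genes). Col8a1 and Col4a3 had control means under 10 and met the minimum only through the cKO libraries. Of the 36 members with a control mean of at least 10, 8 had cKO 1 at least 2 times cKO 2, against 0.789% of the 14195 such genes. The largest gap was in Col6a1, a chain of the beaded filaments around cells, with normalized counts of 18.5 (control 1), 8.65 (control 2), 244 (cKO 1) and 21.5 (cKO 2). cKO 1 was 11.3 times cKO 2. Control 1 was also above control 2, by 1.02 on the log2 scale, against 3.44 for cKO 1 over cKO 2. Control 1 was likewise the higher for Col1a1, Col1a2, Col8a1 and Col8a2 (log2 difference 0.46, 0.56, 0.56 and 0.39). It was higher by less for Col3a1 and Col6a3 (0.11 and 0.05), and control 2 was the higher for Col6a2 and Col14a1 (-0.42 and -0.46). Col6a2, next to Col6a1 on chromosome 10, had 36.1 (control 1), 48.6 (control 2), 227 (cKO 1) and 52.9 (cKO 2). Col6a3, the third chain of the trimer, had 126 (control 1), 121 (control 2), 445 (cKO 1) and 123 (cKO 2). All 3 chains were thus high in cKO 1, with cKO 2 at 0.980 to 1.16 times the higher control. None passed (limma adjusted p 0.116, 0.14 and 0.233), and edgeR also called 0. Col6a1 and Col6a2 were higher at a limma unadjusted p under 0.05, as were 1865 of all 14324 tested genes.

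The short chain network collagens, which form hexagonal sheets in vessels and the cornea, were also highest in cKO 1. Col8a1 had 6.83 (control 1), 4.32 (control 2), 42.2 (cKO 1) and 5.87 (cKO 2) and Col8a2 had 27.3 (control 1), 20.5 (control 2), 90.5 (cKO 1) and 30.3 (cKO 2). cKO 1 was 7.18 and 2.98 times cKO 2, and neither gene passed (limma adjusted p 0.263 and 0.146). The transmembrane collagens are shed from the cell surface. Col25a1, a neuronal member, had 27.3 (control 1), 42.2 (control 2), 59.6 (cKO 1) and 45.02 (cKO 2), Col23a1 had 231 (control 1), 183 (control 2), 279 (cKO 1) and 207 (cKO 2), and Col17a1 had 9.75 (control 1), 10.8 (control 2), 18.5 (cKO 1) and 9.79 (cKO 2). Their limma adjusted p-values were 0.202, 0.426 and 0.612. Col13a1, under the minimum mean, was listed at 3.90 (control 1), 1.08 (control 2), 27.8 (cKO 1) and 5.87 (cKO 2). Over all 38 members the normalized counts summed to 24622 and 24398 in the controls, 36018 in cKO 1 and 25895 in cKO 2.

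**Figure D3:**
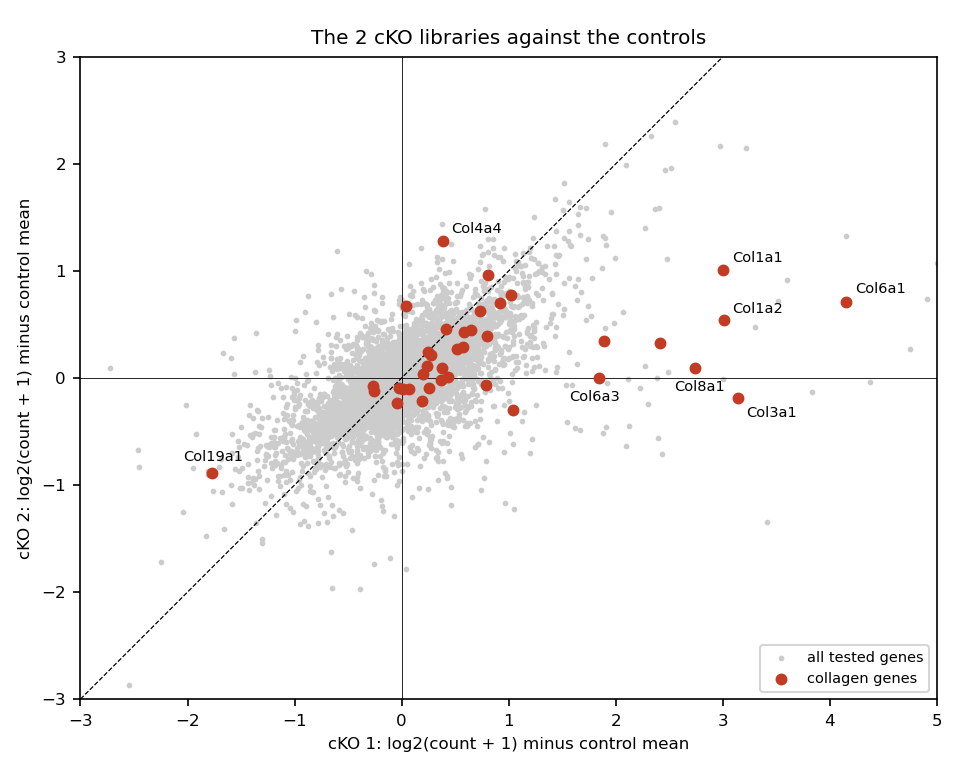
Each point is a gene; the axes are log2(normalized count + 1) minus the control mean in cKO 1 (x) and cKO 2 (y), with equal values on the dashed line and 13 genes outside the plotted range. Col1a1, Col1a2, Col3a1, Col6a1 and Col8a1 lie far right of the line, and Col19a1 lies at the lower left in both libraries.

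Markers of meningeal fibroblasts moved with the collagens that were high in cKO 1. Of 18 tested markers, 5 rose (27.8%, against 6.16% of all tested genes), 1 fell (background 8.29%) and 12 did not pass. In cKO 1, 12 of the 18 were at least 2 times the higher control, against 1.18% of all tested genes, and in cKO 2, 2 were, against 0.314%. Summed counts, over all 21 listed markers with those not tested, were 7616 and 7501 in the controls, 10878 in cKO 1 and 8323 in cKO 2. The median log2 difference of the 18 from the controls was 1.37 in cKO 1 and 0.041 in cKO 2. Lum, a proteoglycan of collagen fibrils, had 14.6 (control 1), 12.97 (control 2), 117 (cKO 1) and 13.7 (cKO 2). Slc6a13, a transporter of the leptomeninges, had 2.93 (control 1), 3.24 (control 2), 109 (cKO 1) and 3.91 (cKO 2). Foxc2, a mesenchymal transcription factor, was listed at 0.975, 0, 26.7 and 0.979 in control 1, control 2, cKO 1 and cKO 2. These genes were high in the same library as Col3a1 and the Col6 chains.

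Other fibroblast markers were higher in both cKO libraries. Crabp2, a retinoic acid binding protein, had 165 (control 1), 139 (control 2), 837 (cKO 1) and 584 (cKO 2) (log2 change 2.20, SE 0.17, limma adjusted p 0.00244). Islr, a secreted stromal protein, had 81.9 (control 1), 75.7 (control 2), 273 (cKO 1) and 152 (cKO 2) (log2 change 1.36, SE 0.25, limma adjusted p 0.0123). Igfbp2, a binding protein of insulin-like growth factors, rose by less (log2 change 0.19), as did the fibril proteoglycan Dcn and the growth factor receptor Pdgfra (log2 change 0.80 and 0.66). Cemip, which takes part in hyaluronan breakdown, fell (log2 change -0.67, limma adjusted p 0.00429). Without cKO 1, 2 of the 18 markers rose and 1 fell, with Dcn, Pdgfra and Igfbp2 no longer called (limma adjusted p 0.0643, 0.171 and 0.0697). edgeR called 3 higher and 1 lower, without Dcn and Pdgfra (adjusted p 0.06 and 0.0577), and DESeq2 did not call Dcn (adjusted p 0.154). The part of fibroblast content in the collagen values was not tested.

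Markers of other cell types that the dissection could hold were counted too. Over all tested genes, 6.16% were higher and 8.29% lower, and 8.33% of the mural and of the macrophage markers were higher. cKO 1 was at least 2 times cKO 2 in 2 of 12 mural, 1 of 9 cartilage and bone and 1 of 12 microglia and macrophage markers. It was so in 0 markers of the other types below, in 10 of 18 fibroblast markers and in 1.03% of all tested genes. The fibroblast count includes Slc6a13, which met the minimum mean only through cKO 1. Summed red blood cell counts were 1876 and 2683 in the controls, 1003 in cKO 1 and 1604 in cKO 2. Of 16 endothelial markers 0 were called by limma or edgeR, with summed counts of 7736 to 8555 over the libraries. In limma 3 of them were lower at an unadjusted p under 0.05, as were 2449 of all 14324 tested genes. Slc2a1, a glucose transporter of brain vessels, and Kdr, a VEGF receptor, did not pass (limma adjusted p 0.873 and 0.901). Over the 16 endothelial markers the median log2 change was -0.14. In both cKO libraries 7 were below both controls (33.3% of all tested genes) and 0 were above both (27.7%). Of 12 mural cell markers 1 rose, the receptor gene Notch3 (log2 change 0.51, SE 0.072, limma adjusted p 0.0064). With limma at an unadjusted p under 0.05, 2 mural markers were higher and 4 lower. Over all 14324 tested genes, 1865 were higher and 2449 lower at that level. Of 9 cartilage and bone markers 2 rose, Ibsp (log2 change 1.61) and Alpl (log2 change 0.58), with Ibsp at 12.7, 18.4, 47.3 and 49.9 in control 1, control 2, cKO 1 and cKO 2. Of 12 microglia and macrophage markers 1 rose, Mrc1, and of 5 choroid plexus markers 2 rose, Otx2 and Folr1, whereas Kcne2 was at 0 in all libraries. Ttr, another choroid plexus marker, did not pass and was lower in both cKO libraries. Its log2 difference from the control mean was -0.78 in cKO 1 and -1.35 in cKO 2. Of 6 red blood cell markers 2 fell, Alas2 and Slc4a1. Of the dorsal telencephalon markers 5 rose (Emx1, Emx2, Pax6, Sox2 and Wnt8b) and 2 fell (Tbr1 and Neurod6). Without cKO 1, Mrc1 and Pax6 did not pass (limma adjusted p 0.0977 and 0.146). With DESeq2, Mrc1, Folr1 and Tbr1 did not pass (adjusted p 0.0599, 0.101 and 0.0692), and without cKO 2, Tbr1 did not (limma adjusted p 0.0579). The part of these cell types in the collagen values was not tested.

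**Figure D4:**
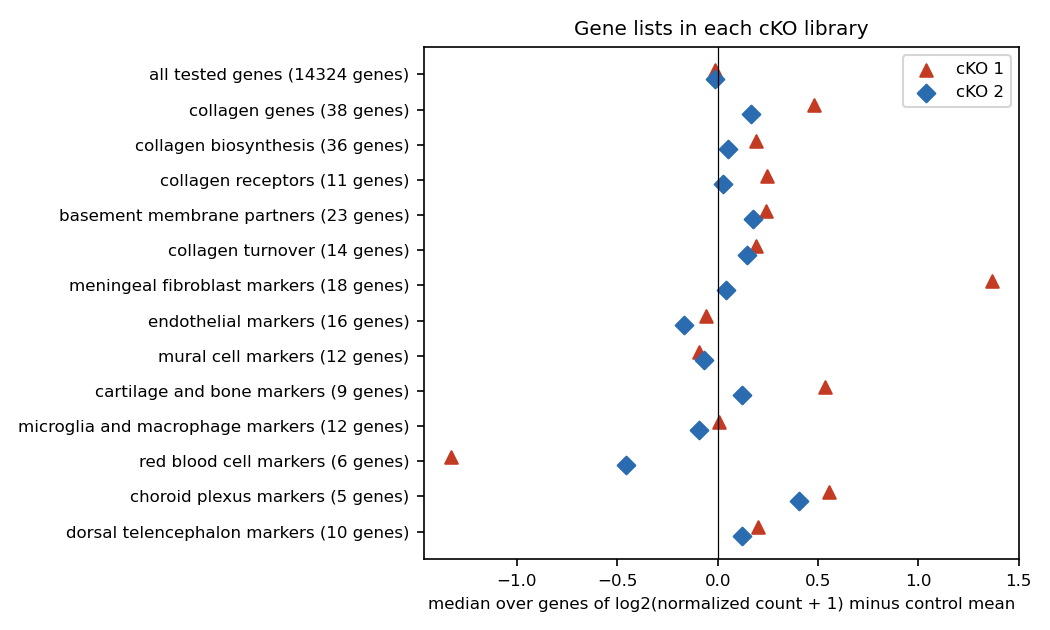
For each gene list, the median over its tested genes of log2(normalized count + 1) minus the control mean, in cKO 1 (triangles) and cKO 2 (diamonds). Collagen genes sit at 0.48 in cKO 1 and 0.16 in cKO 2, meningeal fibroblast markers at 1.37 and 0.041, and all tested genes near 0.

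Collagen chains are hydroxylated and folded in the endoplasmic reticulum, exported in large carriers, trimmed outside the cell and cross-linked. Of 36 tested genes of these steps, 6 rose (16.7%, against 6.16% of all tested genes), 2 fell (background 8.29%) and 28 did not pass. Their median log2 change was 0.12. The cross-linking enzyme Loxl1 had normalized counts of 2879 (control 1), 2559 (control 2), 4484 (cKO 1) and 4295 (cKO 2) (log2 change 0.69, SE 0.063, limma adjusted p 0.0027). Serpinh1, the collagen chaperone Hsp47, had 6378 (control 1), 5872 (control 2), 8015 (cKO 1) and 7545 (cKO 2) (log2 change 0.35, SE 0.055, limma adjusted p 0.00813). Fkbp10, a prolyl isomerase of collagen folding, had 436 (control 1), 435 (control 2), 675 (cKO 1) and 607 (cKO 2) (log2 change 0.55, SE 0.086, limma adjusted p 0.00771). For these 3 genes the cKO libraries lay close together and above both controls, unlike Col3a1 or Col6a1. Adamts3, a proteinase that removes procollagen propeptides, fell, with 1892 (control 1), 2047 (control 2), 1058 (cKO 1) and 1409 (cKO 2) (log2 change -0.69, SE 0.12, limma adjusted p 0.00966). The prolyl hydroxylase family genes P3h2 and P3h4 and the cross-linking enzyme Loxl2 also rose (log2 change 0.64, 0.41 and 0.86), and Sec23a, a coat protein of export vesicles, fell (log2 change -0.24). Loxl2 did not pass with edgeR (adjusted p 0.0541) and P3h4 did not with DESeq2 (adjusted p 0.0897). Without cKO 1, P3h2, P3h4 and Loxl2 did not pass (limma adjusted p 0.103, 0.101 and 0.162), and 3 genes of the list rose and 2 fell. Leaving out either control lost most of these calls, as it did over all tested genes. Lox had 72.2 (control 1), 97.3 (control 2), 317 (cKO 1) and 116 (cKO 2) and did not pass (limma adjusted p 0.0823), with cKO 1 again the highest library.

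Of 11 tested collagen receptors, 1 rose (9.09%, near the 6.16% of all tested genes) and 10 did not pass. Mrc2, the endocytic collagen receptor, had 832 (control 1), 728 (control 2), 1385 (cKO 1) and 987 (cKO 2) (log2 change 0.59, SE 0.14, limma adjusted p 0.031). Its call was lost with edgeR or DESeq2 (adjusted p 0.0545 and 0.103). Adgrg1, the receptor that binds Col3a1 on radial glia, had 8382 (control 1), 8378 (control 2), 10193 (cKO 1) and 9064 (cKO 2) (log2 change 0.20, limma adjusted p 0.0588). Both cKO values of Adgrg1 were above both controls. The difference did not pass limma or edgeR, but passed with DESeq2 (adjusted p 0.0132), for which it was the 1 receptor called, and with limma without cKO 2 (adjusted p 0.00207).

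Of 23 tested partners of collagen in basement membranes, 8 rose (34.8%, against 6.16% of all tested genes), 0 fell and 15 did not pass. Their median log2 change was 0.18, with all libraries and without cKO 1. In both cKO libraries 14 of the 23 were above both controls (27.7% of all tested genes) and 1 was below both (33.3%). Hspg2, which encodes the heparan sulfate proteoglycan perlecan, had 3282 (control 1), 3638 (control 2), 6445 (cKO 1) and 5134 (cKO 2) (log2 change 0.74, SE 0.099, limma adjusted p 0.00596). Lama5, a laminin chain, had 1094 (control 1), 1123 (control 2), 1852 (cKO 1) and 1591 (cKO 2) (log2 change 0.63, SE 0.077, limma adjusted p 0.00494). Itga6, an integrin that binds laminin, had 3003 (control 1), 3331 (control 2), 4899 (cKO 1) and 4338 (cKO 2) (log2 change 0.54, SE 0.072, limma adjusted p 0.00568). All 3 were above both controls in both cKO libraries. Frem1, an epithelial basement membrane protein, rose as well (log2 change 0.70), as did Lama1, Lamb2, Fn1 and Pxdn (log2 change 0.37, 0.38, 0.64 and 0.25). Fn1 did not pass with DESeq2 (adjusted p 0.0663). Pxdn makes cross-links between type IV collagen molecules. Most of these calls were lost without control 1 or without control 2, as were most calls over all tested genes.

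Of 14 tested genes of collagen turnover, 4 rose (28.6%, against 6.16% of all tested genes) and 10 did not pass. Adamts4, a proteoglycan-cleaving proteinase, had 359 (control 1), 346 (control 2), 673 (cKO 1) and 616 (cKO 2) (log2 change 0.87, SE 0.087, limma adjusted p 0.00387). Reck, a membrane inhibitor of metalloproteinases, rose (log2 change 0.72), as did Mmp14 and Mmp2, a membrane collagenase and the gelatinase that it activates (log2 change 0.46 and 0.75). Mmp14 was at 4564, 4164, 6970.0 and 5141 in control 1, control 2, cKO 1 and cKO 2. edgeR did not call Mmp14 or Mmp2 (adjusted p 0.0589 and 0.0547), and DESeq2 did not call Mmp14 (adjusted p 0.171). Without cKO 1, Mmp2 did not pass (limma adjusted p 0.158). Most of the turnover calls were lost when either of the controls was left out, as over all tested genes.

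The chromatin data asked whether Rcor2 lay at collagen genes in wild-type midline. The authors listed 6995 peaks of Rcor2 over IgG and named 9 of them for a collagen, 8 of these for 7 members (18.4%), against 20.9% of all tested genes named for a peak. The ninth was in Col6a6, which fell under the minimum mean. Of the 8 members that passed in the cKO, Col4a6 and Col27a1 had a peak. Heights are the authors' whole-number read heights at each peak, with no scaling for depth seen, and fold enrichment is the authors' own value.

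By the authors' −log10 q, the strongest collagen peak was a gene body peak in Col23a1 (mm10 chromosome 11, 51455546 to 51455805), at 32.2. Its heights were 49 and 62 with Rcor2, 23 and 16 with IgG and 37 and 36 in input, with a fold enrichment of 4.39. Fold enrichment was higher at the peaks of Col27a1 (5.495), Col6a6 (4.829) and Col25a1 (4.463). The IgG and input heights at Col23a1 were above the medians of all peaks, 4 and 3 with IgG and 13 and 12 in input. The Col23a1 peak was the 1 collagen peak at which both Rcor2 heights exceeded both IgG and both input heights. Of all peaks 40.2% met this, and 9.82% of all tested genes were named for such a peak. Col23a1 RNA did not pass. The Col27a1 peak (chromosome 4, 63291020 to 63291314, 75789 bases after the gene start) had heights of 16 and 25 with Rcor2, 5 and 7 with IgG and 22 and 24 in input. The Col4a6 peak (chromosome X, 141276475 to 141276624, 197481 bases after the gene start) had 12 and 20 with Rcor2, 8 and 4 with IgG and 13 and 19 in input. At both, Rcor2 was above IgG, and input was as high as Rcor2.

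The 1 peak in the authors' promoter class was at Col11a1 (chromosome 3, 114030801 to 114030965), with its summit 349 bases after the gene start. Its heights were 9 and 18 with Rcor2, 2 and 2 with IgG and 16 and 12 in input. Col2a1 had 2 gene body peaks, with Rcor2 heights of 15 and 22, and of 9 and 15, against input heights of 15 and 10, and of 14 and 16. The Col25a1 peak had 12 and 22 with Rcor2 and 14 and 13 in input, and the distal peak named for Col5a1, with its summit at -9183 bases from the gene start, had 13 and 15 with Rcor2 and 16 and 15 in input. No peak was named for Col1a1, Col1a2, Col3a1, Col18a1, Col19a1, Col26a1 or a Col6 or Col8 member. Library totals of the ChIP data were not analysed here, so heights of Rcor2 and input libraries are set side by side without scaling.

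**Figure D5:**
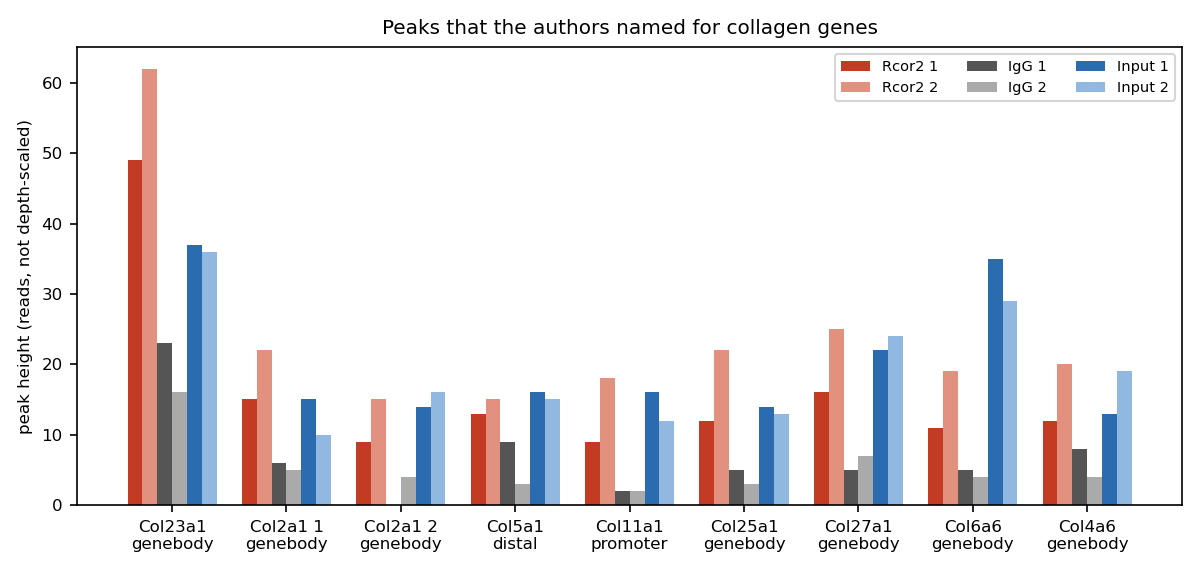
Heights (reads at the peak, not scaled for depth) of the 9 peaks named for collagen genes in 2 Rcor2, 2 IgG and 2 input libraries, with the authors' location class under each gene. Rcor2 bars exceed IgG bars at all 9 peaks, and both exceed both input bars only at Col23a1.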

How the data were processed

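RNA-seq covered 2 control and 2 cKO libraries. The deposited normalized counts are a signal per gene that the authors scaled by 1 factor per library. All values (100%, tolerance 0.0001) were whole multiples of a column's step, so reads were recovered: 30270598 and 27674987 in the controls, 28309925 and 29783893 in cKO 1 and cKO 2. HISAT2 2.1.0, Trim Galore and mm10 are named, without a step, per the submitters' processing notes. The sources used here do not state the gene counter, strand setting or annotation. The authors' deposited table also holds a log2 fold change with its standard error, a test score and p-values under the column names of a DESeq2 table. In the deposited ChIP-seq table, per the file headers, each peak has a fold enrichment over IgG, a −log10 p and q value, a pileup and a height per library.

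Differences were tested with limma 3.58.1 (R 4.3.3, trend on, residual df 2, prior df 6.21) on log2(normalized count + 1). Fold changes are on that scale, which understates the change of low genes. The 14324 of 16338 genes with a mean of at least 10 were tested with Benjamini-Hochberg adjustment over all of them, and a gene passed at an adjusted p under 0.05. With 2 libraries a group, exact permutation reaches p = 0.333 at best. edgeR 4.0.16 and DESeq2 1.42.0 on the recovered reads, other scalings, filters and pseudocounts, a replicate block and leaving out each library were alternatives. The procedure was run on simulated data with the same dispersion for all genes and no shift of a single library. That run cannot show how the test behaves with libraries as unlike as cKO 1 and cKO 2. All collagen members are named, with called genes and the largest examples of the other lists. The members and lists were chosen with earlier results of these data known. Promoter windows for Col1a1, Col2a1, Col4a3, Col5a2, Col9a3, Col12a1, Col14a1, Col22a1 and Col26a1 were not used here.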

Additional observations from a re-analysis of the deposited data

How the results depend on the processing

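Col4a5, Col4a6, Col18a1, Col26a1 and Col19a1 passed under every scaling, pseudocount, filter and tool run and without either cKO library. Without control 1 only Col26a1 passed, and without control 2 none of the members did. Leaving out each library in turn gave 0 to 17 collagens higher, 0 to 1 lower, and 1 to 10 biosynthesis, 0 to 3 receptor, 1 to 12 basement membrane partner and 1 to 5 turnover genes called, where a lone library was assumed to vary like the other group. The replicate block gave 11 collagens higher and 2 receptors (6.25% of all tested genes higher with the block, 6.16% without it). The labels do not say that the numbers pair libraries, but they coincide with the split of Xist and Y-linked genes, and the replicate differences of the groups correlated at 0.2417 across genes. Quantile normalization and edgeR each gave 0 receptors (2 at an unadjusted p under 0.05 in each) and 2 turnover genes. The number of collagens above both controls in both cKO libraries was 19 of 38, against 27.7% of all tested genes. It was 9 at a margin of 25% over the higher control, against 3.55%. Among members with a mean of at least 50 it was 12, and the share of all genes at that mean is not given here. The number of collagens named for a peak was 4 at or above the median −log10 q (13.4% of all tested genes), 1 in the promoter class (10.5%) and 1 with Rcor2 heights above IgG and input (9.82%). Among the 36 members with a control mean of at least 10, a choice made after seeing the data, 7 were higher and 1 lower. Over all tested genes, without that limit, 6.16% were higher and 8.29% lower. The cause of these changes was not tested.

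Reversals of sign were all in genes that did not pass. The log2 change of Col4a2 became 0.0041 with quantile normalization, 0.00011 with edgeR and 0.00074 with DESeq2, and that of Col12a1 0.0023 with TMM, 0.00982 with quantile normalization, 0.016 with edgeR, 0.017 with DESeq2 and 0.015 in the authors' deposited table. That of Slc2a1 became 0.0055 with quantile normalization. Leaving out 1 library at a time also reversed some, with log2 changes of -0.30 to 1.04 for Col14a1, -0.063 to 0.79 for Col17a1, -0.11 to 0.074 for Col4a2, -0.22 to 0.19 for Col12a1, -0.20 to 0.10 for Col15a1, -0.11 to 0.27 for Col22a1, -0.10 to 0.015 for Col4a1, -0.44 to 0.054 for Col9a1, -0.0011 to 1.84 for Col6a3, -0.022 to 0.37 for Col5a1, -0.18 to 3.14 for Col3a1, -0.068 to 0.035 for Slc2a1 and -0.018 to 0.045 for Kdr.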
